A study of Mus musculus with 9 samples.

Results

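The genes of eicosanoid synthesis were followed in splenic MDSCs, the immature myeloid cells that accumulate in tumour-bearing mice. The 8 genes, chosen by symbol, were Alox5, Alox5ap, Lta4h, Ltc4s, Alox15, Ptgs1, Ptgs2 and Ptges, and all 8 were found among the 23284 gene symbols of each sample. The 9 samples formed 3 groups of 3: PMN-MDSCs and Mo-MDSCs from WT mice (C57BL/6J), and Mo-MDSCs from mice labelled p16/p21 double knockout (DKO, C57BL/6). All mice carried tumours of spindle cell tumour (SCT) cells, which the study inoculated under the skin, and both subsets were taken from the spleen with magnetic separation 3 weeks after inoculation, PMN-MDSCs as the Ly6G+ fraction and Mo-MDSCs as cells without Ly6G that carried Gr-1. The labels give 3 weeks as the age, which equals the time after inoculation, whereas the study's methods describe older mice, so the age is not certain. The knockout was carried by the whole mouse, so the host tissues of the DKO-labelled group differed from those of the WT groups as well, and PMN-MDSCs from knockout mice were not analysed here. The labels do not say whether the samples of a group came from separate mice, so the p-values measure the spread between these samples.

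Eicosanoids are short-lived lipid signals made from arachidonic acid, which phospholipases release from membranes. In the lipoxygenase branch, Alox5 (5-lipoxygenase), helped by its membrane partner Alox5ap (FLAP), makes leukotriene A4, which Lta4h converts to the neutrophil attractant leukotriene B4 and Ltc4s to the cysteinyl leukotriene C4. In the cyclooxygenase branch, Ptgs1 (the cyclooxygenase present in many resting cells) and Ptgs2 (the inducible one) make prostaglandin H2, which Ptges converts to prostaglandin E2, a mediator known for its part in suppression of T cells by MDSCs. Alox15 oxidises arachidonic acid at another carbon and takes part in making lipoxins.

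Levels were measured by RNA-sequencing as FPKM, in which the fragments of a gene are scaled to the length of its transcripts and to the mapped fragments of the sample, so that levels of different genes could be set side by side. Differences were calculated on log2(FPKM + 0.1) with limma, a linear model fitted to the genes that reached 1 FPKM in 3 or more of the 6 samples compared, and a gene was called changed at a Benjamini-Hochberg adjusted p-value below 0.05 over all of these genes. Both comparisons used the 3 WT Mo-MDSC samples. Only FPKM values were analysed, so the depth in reads is unknown. The depth relative to WT Mo-MDSC replicate 1, calculated from the steps between low values, ranged from 0.809 to 1.31. Total FPKM was 711675 to 916642 in PMN-MDSCs and 494252 to 618250 in the 6 Mo-MDSC samples. The upper quartile was 12.8 to 13.2 FPKM over the 9 samples. The 10 highest genes held 18.5 to 28.9% of the total in PMN-MDSCs and 9.43 to 15.3% in the Mo-MDSC samples. The library numbers in the labels place the 3 samples numbered replicate 1 in an earlier run of numbers than the other 6.

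The labelled cell types were checked against marker genes. Cxcr2, the chemokine receptor of mature neutrophils, was at 673, 590.4 and 875 FPKM in PMN-MDSCs and at 5.37 to 18.6 FPKM in the 6 Mo-MDSC samples, and Ccr2, the receptor of classical monocytes, was at 2.36 to 2.51 FPKM in PMN-MDSCs and 159.9 to 362 FPKM in Mo-MDSCs. Of the 6 neutrophil markers found, 3 had all WT Mo-MDSC samples below all PMN-MDSC samples (26.4% of all genes tested had). Of the 7 monocyte markers, 6 had them all above (26.2% of all genes tested had). The groups overlapped for the monocyte marker Csf1r, at 674 to 841 FPKM in PMN-MDSCs and 750.5 to 853 FPKM in WT Mo-MDSCs. Ly6c2, also a monocyte marker, was at 100.3 to 279 FPKM and 357 to 614 FPKM. Markers of other spleen cells were present in all groups, and several were lower in WT Mo-MDSCs, as were members described here. Over all genes tested, 20.6% were called lower there. The 6 red pulp macrophage genes summed to 4363 to 4966 FPKM in PMN-MDSCs and 2728 to 3392 FPKM in WT Mo-MDSCs (4 of 6 called lower), and the 5 B cell genes to 1434 to 1635 FPKM and 1020.3 to 1148 FPKM (2 of 5 called lower). The 5 eosinophil genes summed to 159.6 to 195 FPKM and 107 to 140 FPKM, with 1 of 4 tested called lower (Siglecf, at 15.3 to 18.1 FPKM and 0.765 to 1.96 FPKM), while the granule gene Epx stayed below 0.1 FPKM in every sample. None of these genes was called in the DKO-labelled comparison, and their part in the levels of the members was not tested. The 6 markers of mast cells and basophils, cells known for strong Ltc4s and Alox5 expression, stayed below 1 FPKM in every sample. The 6 platelet and megakaryocyte genes summed to 6.20 to 10.3 FPKM in PMN-MDSCs and 4.38 to 5.41 FPKM in WT Mo-MDSCs. Of these 6, Ppbp and Itga2b were lower in WT Mo-MDSCs without overlap (26.4% of all genes tested were). Neither of the 2 genes tested was called in either comparison, and the part of platelets in the levels of the members was not tested. Ly6g was not found among the symbols. In these bulk samples, fewer cells of a type and less RNA per cell cannot be told apart.

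The deleted genes were examined first. Cdkn2a (p16) was at 0.718, 0.772 and 0.432 FPKM in WT Mo-MDSCs and at 0.258, 0.586 and 0 FPKM in the DKO-labelled samples, so the groups overlapped. Cdkn1a (p21) was at 8.18, 6.46 and 8.04 FPKM in WT Mo-MDSCs and at 5.55, 8.52 and 6.00 FPKM in the DKO-labelled samples (log2 difference -0.19, adjusted p = 0.637). These levels per gene do not show which exons carried the reads, and they do not check the knockout label, so the group is called DKO-labelled throughout.

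Promoter sequences are shown so that members that were lower in Mo-MDSCs can be set beside one that was not called, and their part in the levels was not tested. The 250 bases before the RefSeq start (GRCm38.p6, the same assembly as the mm10 build of the files) are shown for 3 members called lower in Mo-MDSCs of the WT mice and for Ptgs1, the sister gene of Ptgs2, whose groups overlapped. Capitals mark matches on either strand to 5 motifs. The TATA box was searched for as TATAAA. The GC box was searched for as GGGCGG. The core of PU.1 sites was searched for as GAGGAA. Part of the cAMP response element was searched for as ACGTCA. A loose form of C/EBP sites was searched for as TTNNGNAA. Alox5 lies on chr6:116461179-116461428 (minus strand), Ltc4s on chr11:50238533-50238782 (minus strand), Ptgs2 on chr1:150099781-150100030 (plus strand) and Ptgs1 on chr2:36230176-36230425 (plus strand).
Alox5: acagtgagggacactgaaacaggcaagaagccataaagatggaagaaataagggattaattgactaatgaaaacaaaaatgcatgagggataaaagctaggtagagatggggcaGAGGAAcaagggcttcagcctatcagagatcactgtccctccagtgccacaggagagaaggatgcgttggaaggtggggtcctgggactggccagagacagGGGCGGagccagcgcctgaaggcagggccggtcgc
Ltc4s: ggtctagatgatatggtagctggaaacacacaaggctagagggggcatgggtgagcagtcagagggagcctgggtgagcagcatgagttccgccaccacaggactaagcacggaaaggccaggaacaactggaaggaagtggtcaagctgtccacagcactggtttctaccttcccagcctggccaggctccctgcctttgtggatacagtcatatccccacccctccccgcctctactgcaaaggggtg
Ptgs2: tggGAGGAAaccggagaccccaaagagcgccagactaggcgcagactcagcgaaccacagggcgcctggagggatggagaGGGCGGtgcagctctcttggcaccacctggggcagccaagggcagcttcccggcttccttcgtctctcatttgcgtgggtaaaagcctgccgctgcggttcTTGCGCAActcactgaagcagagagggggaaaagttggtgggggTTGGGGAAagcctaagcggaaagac
Ptgs1: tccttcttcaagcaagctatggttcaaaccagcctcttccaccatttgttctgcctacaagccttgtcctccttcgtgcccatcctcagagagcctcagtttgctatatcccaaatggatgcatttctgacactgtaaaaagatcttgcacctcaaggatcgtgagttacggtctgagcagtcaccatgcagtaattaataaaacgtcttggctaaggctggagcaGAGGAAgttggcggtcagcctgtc
Alox5 held GGGCGG from base -35 and GAGGAA from base -136, counted back from the start, and Ptgs1 held GAGGAA from base -24. Ptgs2 held GAGGAA from base -247, GGGCGG from base -170 and TTNNGNAA from bases -69 and -25, the first of which reads as the motif on either strand, and no other motifs overlapped. The Ltc4s window held none of the 5 motifs. Of the 6 members in the RefSeq table, 5 held GAGGAA, against 23.3% of all 32851 promoter windows of this length, 3 held GGGCGG (32.7% of all), 2 held TTNNGNAA (36.8% of all), and none held TATAAA (12.4%) or ACGTCA (6.47%). The 5 members with GAGGAA were Alox5, Ptgs2, Ptgs1, Lta4h and Ptges, and the part of the motif in their levels was not tested.

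**Figure D1:**
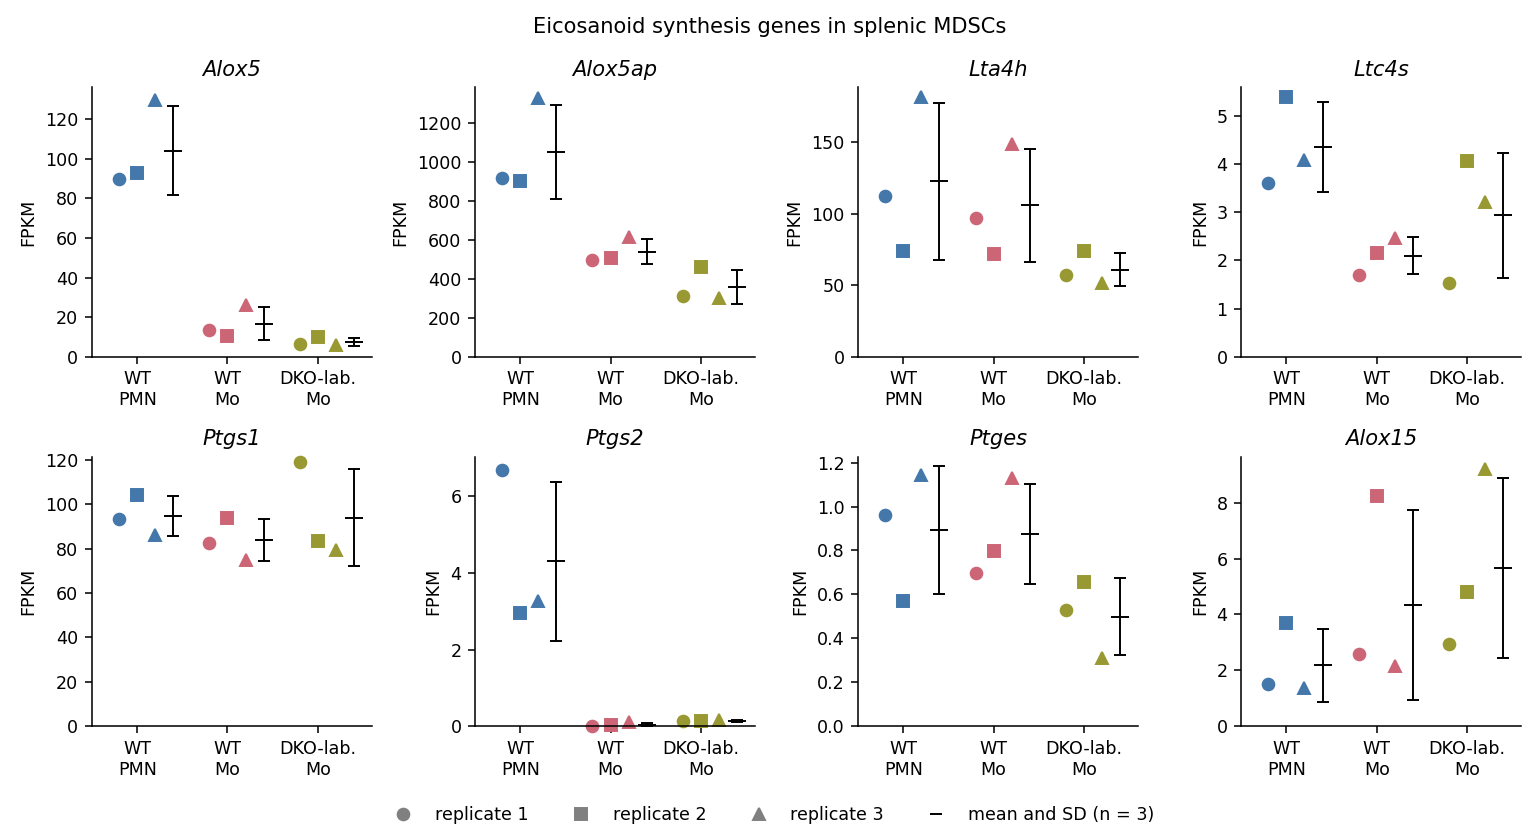
Level of each of the 8 genes in FPKM (vertical axes, from 0) in the 3 samples of each group (points, with a symbol for each replicate number), with the mean and SD of each group. Alox5, Alox5ap, Ltc4s and Ptgs2 have every WT Mo-MDSC sample below every WT PMN-MDSC sample, whereas the groups overlap for Lta4h, Ptgs1, Ptges and Alox15.

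WT Mo-MDSCs were first compared with WT PMN-MDSCs, which asks how the synthesis genes differ between the MDSC subsets. Alox5, Alox5ap, Ltc4s and Ptgs2 were lower in Mo-MDSCs. No member was called higher in the main fit, which did not pair samples by replicate number. Of the 8 members, 7 passed the filter on low levels. Ptgs2 passed only through the PMN-MDSC samples and so had to differ, and it is left out of the counts in this paragraph. Of the other 6 members tested, 3 were called, all lower in Mo-MDSCs and without overlap of the groups. Over all 11491 genes tested, 39.1% were called, 20.6% lower and 18.5% higher, and 26.4% had all Mo-MDSC samples below all PMN-MDSC samples. With quantile normalization, 55.5% of the calls over all genes were higher, against 47.2% without it. With 1 FPKM required in every sample, 3 of 6 members were called, as were 39.4% of all genes. The median difference of the 6 members was -0.56, against 0.01 over all genes tested.

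Alox5, which starts leukotriene synthesis, was at 89.7, 93.0 and 130.0 FPKM in PMN-MDSCs and at 13.4, 10.3 and 26.3 FPKM in WT Mo-MDSCs. All 3 Mo-MDSC samples were below all 3 PMN-MDSC samples, and the Mo-MDSC mean (16.7 ± 8.50 FPKM, SD, n = 3) was 16.02% of the PMN-MDSC mean (104.2 ± 22.4 FPKM). The log2 difference was -2.73 (SE 0.33, adjusted p = 0.000855).

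Alox5ap, which presents arachidonic acid to 5-lipoxygenase, was the most abundant member in every sample. It was at 922, 902 and 1333 FPKM in PMN-MDSCs and at 496, 509.9 and 614 FPKM in WT Mo-MDSCs, again without overlap. The log2 difference was -0.95 (SE 0.17, adjusted p = 0.00496), and the mean in Mo-MDSCs was 51.3% of that in PMN-MDSCs. The level of Alox5ap was 9.70 to 10.3 times that of Alox5 in PMN-MDSCs and 23.3 to 49.4 times in WT Mo-MDSCs, so that the partner exceeded the enzyme by a wider margin in Mo-MDSCs.

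Ltc4s, which commits leukotriene A4 to the cysteinyl leukotrienes, was a low gene, at 3.60, 5.41 and 4.08 FPKM in PMN-MDSCs and 1.70, 2.15 and 2.46 FPKM in WT Mo-MDSCs. Every Mo-MDSC sample was below every PMN-MDSC sample, and the log2 difference was -1.01 (SE 0.20, adjusted p = 0.00684).

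Lta4h, which makes leukotriene B4, was at 112, 73.9 and 182 FPKM in PMN-MDSCs and at 96.7, 71.8 and 149 FPKM in WT Mo-MDSCs. The groups overlapped, with replicate 2 the lowest and replicate 3 the highest of both, and the log2 difference of -0.18 (SE 0.37, 95% confidence interval -1.05 to 0.69) was not called (adjusted p = 0.728). The granule genes Camp, Ltf and Ngp had the same order of replicates in both groups, and Ngp, for example, was at 4997, 2699 and 11179 FPKM in PMN-MDSCs and at 3337, 2349 and 7617 FPKM in WT Mo-MDSCs. Mmp8 and Retnlg did not have this order in WT Mo-MDSCs, where Retnlg, for example, was highest in replicate 2 (107 FPKM, against 64.6 and 79.2 FPKM in replicates 1 and 3). Of the 6 neutrophil markers found, 3 were called lower in Mo-MDSCs (Cxcr2, Mmp8 and Retnlg), none was at 0, and their summed level was 9061 to 26540 FPKM in PMN-MDSCs and 4430 to 13945 FPKM in WT Mo-MDSCs. The part of these cells in the levels of the members was not tested.

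In the cyclooxygenase branch the 2 enzymes of the same step behaved differently. Ptgs1 was at 93.5, 104 and 86.1 FPKM in PMN-MDSCs and at 82.6, 93.8 and 74.98 FPKM in WT Mo-MDSCs, so its groups overlapped at levels close to each other (log2 difference -0.18, SE 0.11, 95% confidence interval -0.44 to 0.08, adjusted p = 0.248). Ptgs2 was at 6.69, 2.96 and 3.27 FPKM in PMN-MDSCs and at 0, 0.0377 and 0.0988 FPKM in WT Mo-MDSCs. Ptgs2 was thus near 0 in Mo-MDSCs, and at 2.96 FPKM or more in PMN-MDSCs. The log2 difference was -4.88 (SE 0.42), and its size depended on the constant added before the logarithm, from -2.28 with 1 FPKM to -6.75 with 0.01 FPKM. The call of Ptgs2 was set by the filter, so its levels are a description. Per length of transcript, Ptgs1 was 14.0 to 35.2 times as abundant as Ptgs2 in PMN-MDSCs, so Ptgs1 carried most of the cyclooxygenase mRNA in both subsets.

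Ptges, the inducible prostaglandin E synthase, was low in both subsets, at 0.961, 0.572 and 1.14 FPKM in PMN-MDSCs and 0.697, 0.799 and 1.13 FPKM in WT Mo-MDSCs. It did not pass the filter, and the groups overlapped over nearly their whole range.

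Alox15 was the only member with a higher mean in Mo-MDSCs. It was at 1.498, 3.68 and 1.37 FPKM in PMN-MDSCs and at 2.59, 8.25 and 2.15 FPKM in WT Mo-MDSCs, with the highest value in replicate 2 of both groups. The groups overlapped and the log2 difference of 0.84 (SE 0.56) was not called (adjusted p = 0.280). The difference of Alox15 was 0.25 without WT Mo-MDSC replicate 2 and 1.27 without PMN-MDSC replicate 2. Alox15 is also known from red blood cell precursors, and Hba-a1, a globin gene, was likewise highest in replicate 2, at 2656 FPKM in PMN-MDSCs and 2529 FPKM in WT Mo-MDSCs against 1110.3 to 1633 FPKM in replicates 1 and 3. The DKO-labelled samples did not share this, since Hba-a1 was highest in replicate 2 (2224 FPKM) and Alox15 in replicate 3 (9.22 FPKM, with Hba-a1 at 1655 FPKM). The 6 erythroid markers, none of them at 0, summed to 3053 to 6815 FPKM in PMN-MDSCs and 3016 to 6201 FPKM in WT Mo-MDSCs, and their part in the level of Alox15 was not tested.

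Replicates with the same number in the labels deviated from their group means together in this comparison, so the replicate number was also fitted as a block. All 6 members tested beside Ptgs2 were then called, against 57.3% of all genes, and Ptgs2 was called as well. The additional calls were Alox15 (higher in Mo-MDSCs, adjusted p = 0.00387), Lta4h (lower, adjusted p = 0.0425) and Ptgs1 (lower, adjusted p = 0.0148). Within the pairs, the level in Mo-MDSCs was 1.73, 2.24 and 1.58 times that in PMN-MDSCs for Alox15, 0.862, 0.972 and 0.819 times for Lta4h, and 0.883, 0.902 and 0.870 times for Ptgs1. The small decreases of Lta4h and Ptgs1 depended on the scaling, and with quantile normalization (without the block) their log2 differences turned to 0.15 and 0.13. Quantile normalization moved the median of all genes from 0.01 to 0.06. In exact permutation tests on single members (two-sided, 3 against 3 samples), Alox5, Alox5ap and Ltc4s reached p = 0.1, the smallest p-value this design allows. Ptgs2 reached it as well, but had to differ because of the filter.

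**Figure D2:**
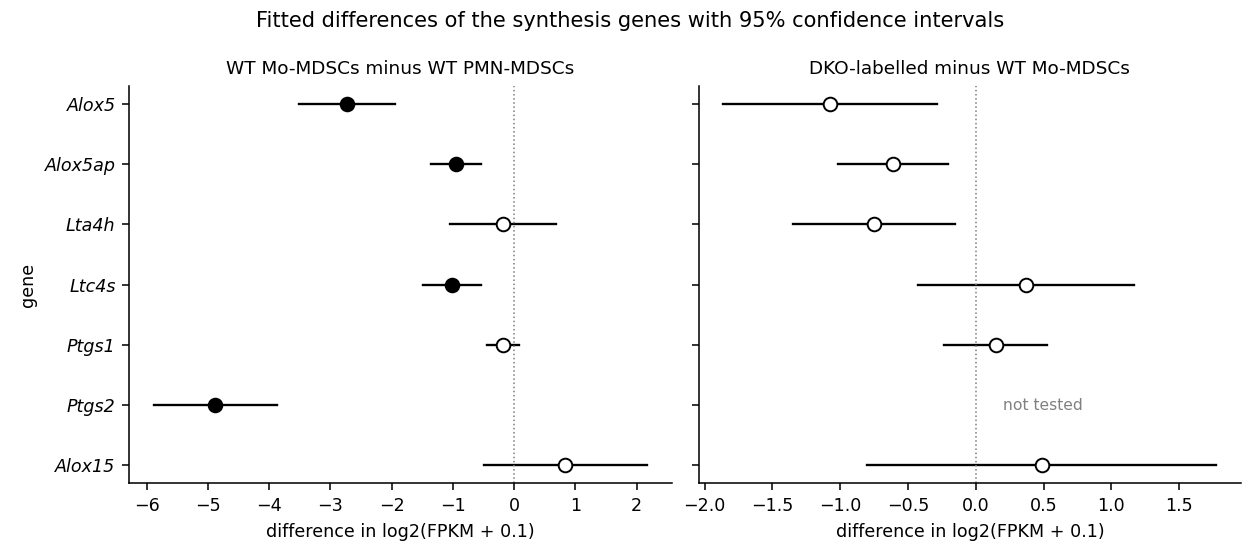
Difference in log2(FPKM + 0.1) (horizontal axes) of the members that passed the filter, between WT Mo-MDSCs and WT PMN-MDSCs (left) and between DKO-labelled and WT Mo-MDSCs (right). Bars are 95% confidence intervals, filled points have an adjusted p-value below 0.05 (Alox5, Alox5ap, Ltc4s and Ptgs2 on the left, none on the right), and Ptges passed in neither comparison. Ptgs2 passed the filter only through the PMN-MDSC samples, so its filled point is a description.

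DKO-labelled Mo-MDSCs were then compared with WT Mo-MDSCs, which asks whether the synthesis genes differ where p16 and p21 are labelled as deleted. No member was called in either direction. Of the 8 members, 6 passed the filter, with 0 called by limma, against 0.253% of all 11451 genes tested (29 genes, 0.166% higher and 0.0873% lower). Alox5, Alox5ap and Lta4h had an unadjusted p-value below 0.05, which 15.0% of all genes tested had, and passed a threshold of 0.75-fold with it, which 7.0% of all genes passed in either direction. The median difference of the 6 members was -0.23, against -0.02 over all genes.

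Alox5 was at 6.33, 9.86 and 6.11 FPKM in the DKO-labelled samples, all of them below the lowest WT Mo-MDSC sample (10.3 FPKM). The mean (7.43 ± 2.11 FPKM, SD, n = 3) was 44.5% of that in WT Mo-MDSCs, and the log2 difference was -1.08 (SE 0.34, 95% confidence interval -1.86 to -0.29, adjusted p = 0.228). Replicate 2 of the DKO-labelled group lay close to replicate 2 of the WT group, and the difference ranged from -1.36 to -0.69 when single samples were left out.

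Alox5ap was at 312, 461 and 304 FPKM in the DKO-labelled samples, again all below the lowest WT sample of 496 FPKM. The mean was 66.5% of that in WT Mo-MDSCs (log2 difference -0.61, SE 0.18, adjusted p = 0.208). Lta4h was at 57.1, 74.1 and 51.5 FPKM, and replicate 2 lay above the lowest WT sample, so the groups overlapped (log2 difference -0.75, SE 0.26, adjusted p = 0.256). The 3 genes that lead to leukotriene B4 thus had lower means in the DKO-labelled samples, by amounts that did not pass the test over all genes. In this comparison 2 of the 6 members tested, Alox5 and Alox5ap, had all DKO-labelled samples below all WT samples, as had 12.9% of all genes tested.

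The other members gave no common direction. Ltc4s was at 1.53, 4.08 and 3.21 FPKM in the DKO-labelled samples, which enclosed all of the WT values (log2 difference 0.37, SE 0.34, adjusted p = 0.632). Ptgs1 was at 119, 83.4 and 79.5 FPKM, with replicate 1 above all WT samples and the other two within their range (log2 difference 0.15, SE 0.16, 95% confidence interval -0.23 to 0.53, adjusted p = 0.693), and the sign of this difference rested on that sample, since it was -0.04 without it. Alox15 was at 2.93, 4.82 and 9.22 FPKM and overlapped with the WT samples (log2 difference 0.49, SE 0.56, adjusted p = 0.702, and 0.06 to 1.07 when single samples were left out). The samples with the highest Alox15 were thus replicate 2 in both WT groups and replicate 3 in the DKO-labelled group.

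Ptgs2 and Ptges did not pass the filter in this comparison. Ptgs2 was at 0.126, 0.125 and 0.174 FPKM in the DKO-labelled samples, above the WT Mo-MDSC samples and far below the PMN-MDSC samples. Ptges was at 0.530, 0.655 and 0.310 FPKM, below the lowest WT Mo-MDSC sample of 0.697 FPKM.

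The WT and DKO-labelled Mo-MDSC samples were also set side by side with the neutrophil markers. Alox5, the leukotriene B4 receptor Ltb4r1, Ltf and Ngp put the 6 samples in the same order, which was WT replicates 3, 1 and 2, then DKO-labelled replicates 2, 1 and 3. Cxcr2, Camp and Lta4h differed from this order only in that DKO-labelled replicate 2 came before WT replicate 2, and Alox5ap only in that WT replicate 2 came before WT replicate 1. Cxcr2 was at 10.02, 6.87 and 18.6 FPKM in WT Mo-MDSCs and at 5.58, 9.71 and 5.37 FPKM in the DKO-labelled samples. Retnlg, Mmp8 and the glutathione transferase Mgst2 gave other orders. Retnlg was at 64.6 to 107 FPKM in WT and 13.9 to 33.6 FPKM in DKO-labelled Mo-MDSCs. Mmp8 was at 42.3 to 55.2 FPKM in WT and 71.7 to 112 FPKM in DKO-labelled Mo-MDSCs. None of the 6 neutrophil markers was called and none was at 0, and their summed level was 4430 to 13945 FPKM in WT and 1966 to 4196 FPKM in DKO-labelled Mo-MDSCs. The lower means of Alox5, Alox5ap and Lta4h came with lower means of Cxcr2, Camp, Ltf, Ngp and Retnlg and a higher mean of Mmp8. The part of neutrophil RNA in the levels of these members was not tested.

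**Figure D3:**
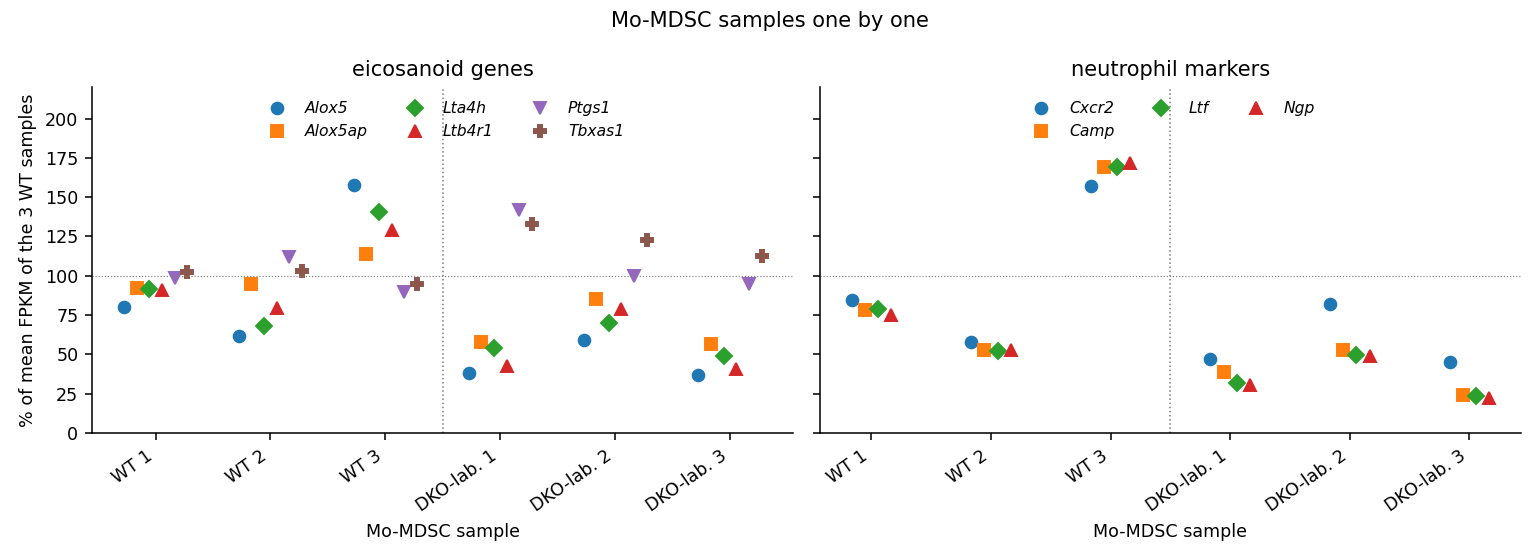
FPKM in each of the 6 Mo-MDSC samples as a percentage of the mean of the 3 WT samples (vertical axes, the dotted line is 100%), for 6 eicosanoid genes (left) and 4 neutrophil markers (right). Alox5, Alox5ap, Lta4h and Ltb4r1 are highest in WT replicate 3 and lowest in DKO-labelled replicate 3, as are the 4 markers shown, whereas Ptgs1 and Tbxas1 are highest in DKO-labelled replicate 1. Not shown are the neutrophil markers Retnlg, highest in WT replicate 2, and Mmp8, highest in DKO-labelled replicate 2 and lowest in WT replicate 1.

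Across the 3 groups, the mean level of Alox5 was highest in PMN-MDSCs, followed by WT Mo-MDSCs and then DKO-labelled Mo-MDSCs, and Alox5ap and Lta4h had the same order. Only the step from PMN-MDSCs to WT Mo-MDSCs was called, for Alox5 and Alox5ap, and for Lta4h only with the replicate block. Ltc4s and Ptgs2 were highest in PMN-MDSCs, followed by DKO-labelled and then WT Mo-MDSCs, and the 2 Mo-MDSC groups did not differ beyond their spread for Ltc4s. The means of Ptgs1 were 94.5 ± 8.97, 83.8 ± 9.46 and 93.9 ± 21.7 FPKM in PMN-MDSCs, WT Mo-MDSCs and DKO-labelled Mo-MDSCs (SD, n = 3 each), and WT Mo-MDSCs did not differ from either of the other groups beyond the spread in the fits without the block. PMN-MDSCs and DKO-labelled Mo-MDSCs were not compared by a test. Among the members, Alox5ap was the most abundant in every group and Ptges or Ptgs2 the least.

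The other genes of the pathway were taken from a list of 55 enzymes, transporters and receptors. In WT Mo-MDSCs against PMN-MDSCs, 38 of them were tested, 8 were called higher and 11 lower in Mo-MDSCs (19 of 38, against 39.1% of all genes), with a median difference of -0.15. The calls of Ggt1, Dpep2 and Cysltr1 among these were set by the filter, which they passed through 1 subset only, and with 1 FPKM required in every sample 16 of 32 were called, against 39.4% of all genes. In DKO-labelled against WT Mo-MDSCs, 37 were tested and 1 was called, with a median difference of 0.11.

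Of the enzymes that release arachidonic acid or trim phospholipids, 1 was called higher and 2 lower among 7 tested, against 18.5% higher and 20.6% lower over all genes. Pla2g4a, the cytosolic phospholipase that supplies arachidonic acid, was at 20.4 to 26.4 FPKM in PMN-MDSCs and 20.3 to 22.7 FPKM in WT Mo-MDSCs and was not called (adjusted p = 0.473). Pla2g7, which hydrolyses platelet-activating factor, was at 603, 603 and 654 FPKM in PMN-MDSCs and at 268, 249 and 270.2 FPKM in WT Mo-MDSCs (log2 difference -1.24, SE 0.08, adjusted p = 5.32e-05). Pla2g2d, a secreted phospholipase, was also lower in Mo-MDSCs (-1.17), Pla2g4b was higher (0.74) and the lysosomal Pla2g15 was not called (adjusted p = 0.136).

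Downstream of Ltc4s, the genes that process cysteinyl leukotrienes divided between the subsets. Ggt1 and Ggt5, which remove glutamate from leukotriene C4, were lower in Mo-MDSCs. Ggt1 was at 5.97, 1.98 and 5.43 FPKM in PMN-MDSCs and at 0.203, 0.123 and 0.0429 FPKM in WT Mo-MDSCs (log2 difference -4.27, SE 0.49), and Ggt5 was at 21.3 to 28.7 FPKM and 4.81 to 5.33 FPKM (-2.23, SE 0.13). Dpep2, a dipeptidase that turns leukotriene D4 into E4, was instead at 0.658, 0.439 and 0.644 FPKM in PMN-MDSCs and at 13.2, 17.9 and 19.7 FPKM in WT Mo-MDSCs (log2 difference 4.64, SE 0.20). Cysltr1, the main cysteinyl leukotriene receptor, was higher in Mo-MDSCs as well, at 0.336 to 0.538 FPKM in PMN-MDSCs and 5.60 to 8.40 FPKM in WT Mo-MDSCs (3.74, SE 0.22). For Ggt1, Dpep2 and Cysltr1 the levels are thus a description, while Ggt5 was above 1 FPKM in every sample.

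On the leukotriene B4 side, Cyp4f18, which inactivates leukotriene B4 by oxidation, was at 158, 197 and 195 FPKM in PMN-MDSCs and at 83.0, 84.7 and 94.5 FPKM in WT Mo-MDSCs (log2 difference -1.06, SE 0.11, adjusted p = 0.000391). Ltb4r1, its high-affinity receptor, was at 59.5, 45.7 and 106 FPKM and at 44.5, 39.0 and 63.3 FPKM, with the groups overlapping (-0.46, adjusted p = 0.288). Cotl1, a protein that binds 5-lipoxygenase, was lower in Mo-MDSCs (-0.54, adjusted p = 0.0155), although not past the threshold without WT Mo-MDSC replicate 1 (adjusted p = 0.0596) or 2 (0.0504). Fpr2, a receptor for lipoxin A4 and formyl peptides, was at 256, 149 and 330.9 FPKM in PMN-MDSCs and at 50.3, 34.6 and 67.2 FPKM in WT Mo-MDSCs (-2.25, SE 0.33). Mgst2 and Mgst3, glutathione transferases related to Ltc4s, were not called (adjusted p = 0.379 and 0.473).

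In the prostanoid branch, 3 of 14 tested genes were called higher and 1 lower, against 18.5% higher and 20.6% lower over all genes. Tbxas1, thromboxane synthase, was at 59.1 to 64.4 FPKM in PMN-MDSCs and 56.3 to 61.2 FPKM in WT Mo-MDSCs, and Hpgds, which makes prostaglandin D2, at 20.9 to 27.2 FPKM and 24.3 to 30.6 FPKM. Neither was called, nor were Ptges3, Ptgis, Hpgd (which inactivates prostaglandins), Ptgr2 and Cbr1. The genes called were Ptgr1 (1.29), which also inactivates leukotriene B4, the exporters Abcc4 (0.70) and Abcc1 (0.58), and Prxl2b (-0.63), which appears in the files as 2810405K02Rik. Among the prostanoid receptors, Ptger4 (0.83) and Ptgir (1.54) were higher in Mo-MDSCs and Ptger2 (-1.34), Tbxa2r (-0.62) and Ptger1 (-0.27) lower. The E2 receptors that raise cyclic AMP thus went in opposite ways, with Ptger4 at 6.00 to 6.40 FPKM in PMN-MDSCs and 10.3 to 11.8 FPKM in WT Mo-MDSCs, and Ptger2 at 6.66 to 8.17 FPKM and 2.62 to 3.11 FPKM. Ptger1 lost its call when any 1 of 5 samples was left out (adjusted p up to 0.0907). With quantile normalization the calls of 2810405K02Rik (adjusted p = 0.101), Ptger1 (0.296) and Cotl1 (0.932) were lost.

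With the replicate number as a block, 28 of the 38 pathway genes were called, against 57.3% of all genes. Of the genes named above as not called, the block added Mgst3 and Hpgds (higher in Mo-MDSCs) and Mgst2, Ltb4r1, Ptges3, Hpgd and Pla2g15 (lower), with adjusted p-values of 0.00163, 0.0165, 0.00497, 0.00885, 0.00663, 0.0122 and 0.0175 in that order.

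**Figure D4:**
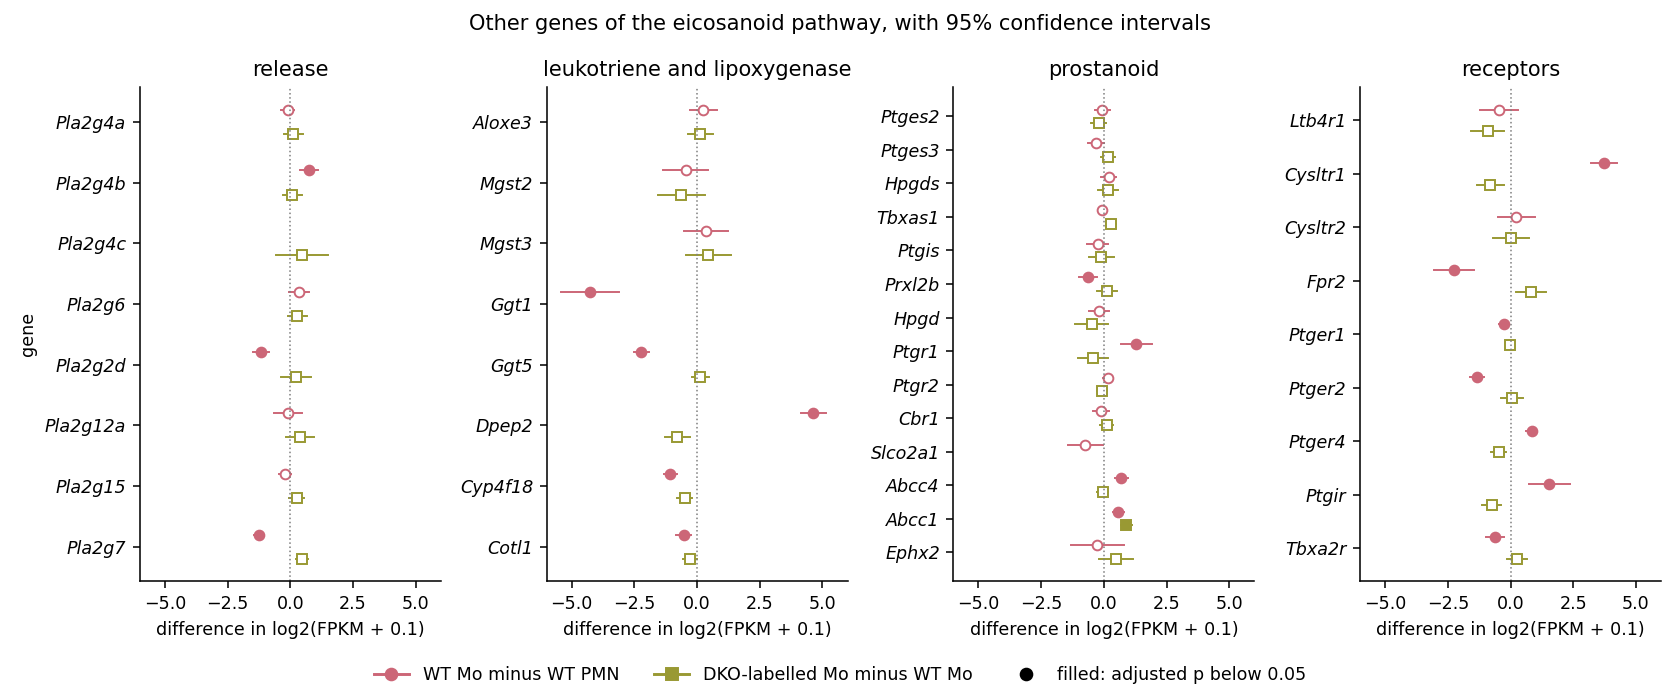
Difference in log2(FPKM + 0.1) (horizontal axes) of the other pathway genes that passed the filter, in 4 panels by role. Circles are WT Mo-MDSCs minus WT PMN-MDSCs, squares are DKO-labelled minus WT Mo-MDSCs, bars are 95% confidence intervals and filled symbols have an adjusted p-value below 0.05, which among the squares is only Abcc1.

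Abcc1, which exports leukotriene C4 from cells, was the pathway gene called in the DKO-labelled samples. It was at 12.7, 11.1 and 12.3 FPKM in WT Mo-MDSCs and at 20.4, 23.8 and 22.9 FPKM in DKO-labelled Mo-MDSCs, without overlap (log2 difference 0.89, SE 0.10, adjusted p = 0.0261). The size of this difference changed little when single samples were left out (0.83 to 0.95), but the adjusted p-value of Abcc1 was 0.0949, 0.0512 and 0.0932 without WT replicate 1, 2 or 3 and 0.0777 and 0.126 without DKO-labelled replicate 2 or 3. The adjusted p-value of Abcc1 was 0.0596 with the replicate block, 0.272 without variance moderation and 0.126 with replicates 2 and 3 only. Between the WT subsets, Abcc1 was called higher in Mo-MDSCs (0.58), and PMN-MDSCs were at 8.72, 7.87 and 7.54 FPKM.

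Besides Abcc1, 9 of the 37 pathway genes tested had an unadjusted p-value below 0.05 in the DKO-labelled comparison, as had 15.0% of all genes. Dpep2 was at 8.62, 13.1 and 7.92 FPKM in the DKO-labelled samples (log2 difference -0.79, adjusted p = 0.199) and Cysltr1 at 4.14, 4.97 and 2.78 FPKM (-0.81, adjusted p = 0.208), both below their WT ranges, and Ptgir, Ptger4, Cyp4f18 and Ltb4r1 also had negative differences without overlap. Pla2g7 (0.46) and Tbxas1 (0.29) had positive differences without overlap, and the groups of Fpr2 (0.81) overlapped. None of these was called. Of the 7 monocyte markers, 5 had all DKO-labelled samples below all WT samples (12.9% of all genes had), with Ccr2, for example, at 281 to 362 FPKM in WT and 159.9 to 202 FPKM in DKO-labelled Mo-MDSCs. The groups overlapped for Csf1r, at 750.5 to 853 FPKM and 759 to 919 FPKM, and for F13a1. The 7 markers, none of them called or at 0, summed to 2048 to 2323 FPKM in WT and 1665 to 1818 FPKM in DKO-labelled Mo-MDSCs, and their part was not tested.

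For each member above 1 FPKM in a group, the genes with the most similar pattern were sought among 11726 genes, by the root mean square difference of log2(FPKM + 0.1) after centring each gene over the 9 samples. Alox5 was closest to 9830107B12Rik (0.15) and Mmp25 (0.21), the latter a membrane protease known from neutrophils, and Alox5ap to Myd88 (0.07) and Mxi1 (0.10). Lta4h was closest to Abhd5 (0.09) and Adpgk (0.09), Ltc4s to Mylpf (0.13) and Rbm38 (0.26), and Ptgs1 to Asb2 and Tspan15 (both 0.07). The nearest genes of Alox15 (Atp2b4 and Arhgef40, both 0.30) and Ptgs2 (Lypd6b, 0.43, and Ankrd33b, 0.47) were farther away. The measure is not scaled to the spread of each gene, so it does not show which members were followed more closely. Of the 14 genes, 6 were also among the nearest when replicates 2 and 3 alone were used. These were 9830107B12Rik, Myd88, Abhd5, Adpgk, Mylpf and Tspan15, so Mmp25 was not among them.

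The genes lie apart in the genome (GRCm38, GENCODE M21), with Alox15 at chr11:70344152-70352031 and Ltc4s at chr11:50236461-50238616 on one chromosome and Ptgs1 at chr2:36230426-36252272 and Ptges at chr2:30889471-30929863 on another. Alox5 is at chr6:116410077-116461178, Alox5ap at chr5:149264767-149288153, Lta4h at chr10:93453411-93484875 and Ptgs2 at chr1:150100031-150108227. Exons on the opposite strand overlap with Alox5ap (189 bases), Ltc4s (268 bases) and Ptgs1 (148 bases). The libraries were stranded, but the strand setting of the counting is not given in the sources used here, so reads of these partners may be included in the levels.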

How the data were processed

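RNA was extracted by the authors from splenic MDSCs, and stranded mRNA libraries were sequenced as 75-base single-end reads. Per the labels and the study's methods, the authors mapped reads to mm10 with TopHat2 2.0.13, Bowtie2 2.2.3 and SAMtools 0.1.19 and deposited FPKM values per gene symbol, normalised with Cuffnorm 2.2.1. The annotation is not given in the sources used here. FPKM values are not counts and were not tested as counts.

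Groups were taken from the labels. Values were transformed to log2(FPKM + 0.1), and genes reaching 1 FPKM in 3 or more of 6 samples were fitted with limma 3.58.1 (R 4.3.3; lmFit, eBayes with trend) without covariates, with Benjamini-Hochberg adjustment over all genes tested. The fit was tested on simulated data. Python 3.11.15 with pandas 2.3.3 and numpy 2.4.6 was used for the other steps. Median standard errors over all genes were 0.12 in both comparisons on the log2 scale. The members, the pathway list and the markers were chosen with earlier results of these data known. The text names all members, the deleted genes, markers, the 2 nearest genes of each member, and pathway genes that were called or reached a group mean of 10 FPKM.

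Deviations of same-numbered samples correlated in WT Mo- and PMN-MDSCs (r = 0.29, 0.48 and 0.20 across genes), so the replicate number was fitted as a block there as an alternative. The main fit held no block, so its standard errors and p-values do not use this pairing. The alternatives were other pseudocounts (1 and 0.01), filters, scaling, variance models and sample sets, the replicate block, and a call by fold (above 2 or below its inverse between subsets, below 0.75 or above its inverse for DKO-labelled samples) with an unadjusted p-value below 0.05. Promoter sequences are from RefSeq (6 of 8 members matched).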

Additional observations from a re-analysis of the deposited data

How the results depend on the processing

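The 4 calls in WT Mo-MDSCs against PMN-MDSCs numbered 4 each time a sample was left out and 3 to 7 over all alternatives. These counts include Ptgs2, whose call was set by the filter. Alox5, Alox5ap and Ltc4s kept their calls each time a sample was left out. There were 7 calls under the replicate block (57.3% of all genes were called). With 1 FPKM required in every sample, which removes Ptgs2, there were 3 (39.4% of all genes). By fold with an unadjusted p-value there were 3 (10.2% of all genes), and Alox5ap was not among them. The calls of pathway genes between the subsets numbered 19 of 38, with 4492 calls over all 11491 genes. By fold with an unadjusted p-value they numbered 11 (10.2% of all genes). When single samples were left out they numbered 17 to 19, with 3413 to 3972 calls over all genes. They numbered 16 with quantile normalization (8 higher and 8 lower, against 8 and 11), where 39.9% of all genes were called. Without variance moderation they numbered 15, with 3672 calls over all genes. With replicates 2 and 3 only they numbered 13, with 2952 calls over all genes, so the counts over all genes fell as well. No member was called in DKO-labelled against WT Mo-MDSCs under any alternative with adjusted p-values, while 3 (Alox5, Alox5ap and Lta4h) passed by fold with an unadjusted p-value, as did 7.0% of all genes. The single pathway call there (Abcc1) went to 0 under the replicate block, without variance moderation and with replicates 2 and 3 only. All genes had 20, 0 and 7 calls in these fits, against 29. The pathway calls numbered 0 to 1 when single samples were left out (8 to 23 over all genes). They numbered 2 with quantile normalization (Abcc1 and Pla2g7, against 0.297% of all genes), and 9 by fold with an unadjusted p-value (7.0% of all genes). Over all genes, the calls ranged from 1172 to 6584 between the subsets and from 0 (without variance moderation) to 801 (by fold) for the DKO-labelled samples.

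Signs that turned belonged to differences that were not called without the replicate block. Lta4h between the subsets was 0.15 with quantile normalization and -0.50 to 0.15 when single samples were left out, Ptgs1 between the subsets was 0.13 with quantile normalization, and Ptgs1 in the DKO-labelled comparison was -0.0423 with replicates 2 and 3 only and -0.0351 to 0.26 when single samples were left out. The cause was not tested. In DKO-labelled and WT Mo-MDSCs the correlations of same-numbered samples were 0.35, 0.23 and -0.07, not every sample correlated best with its own number, and the replicate block took the calls over all genes from 29 to 20. The replicate block changed no other call of a member. With 3 samples a group, differences of low genes such as Ptges and Ptgs2 in Mo-MDSCs could not be resolved, and counting error could not be calculated from FPKM.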
